A study of Mus musculus with 4 samples.

Results

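RYBP was found in the introns of genes, away from any annotated start site, at 219 regions that were called in both replicates. These regions were taken from 22409 merged RYBP regions by position. A member was narrower than 4000 bp, overlapped a peak of each replicate, lay over 2500 bp from every start site of a protein-coding gene and over 1000 bp from every other start site, sat inside a protein-coding gene body, and touched no annotated exon. Of the 22409 merged regions, 9901 (44.2%) overlapped a peak in both replicates. Among the 2406 intronic distal regions under 4000 bp, 948 were called in replicate 1 alone, 1239 in replicate 2 alone and 219 (9.10%) in both. The shared calls themselves chose the members, so this share is a description.

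The regions came from RYBP ChIP-seq of wild-type mouse FLK1+ mesoderm, sorted from embryoid bodies (EBs) grown from C57Bl/6 X Sv129 embryonic stem (ES) cells. EBs are aggregates of differentiating ES cells, and FLK1 is the VEGF receptor that marks mesoderm with blood and endothelial potential. The labels give day 3.75 and an antibody against DEDAF, another name of RYBP, for both ChIP samples, and the methods of the study give a neighbouring day. The series also holds 2 input samples, which are not analysed here, and its design text speaks of SCL where the title and the antibody name RYBP. All samples shared the genotype, strain, stage and sort, so no comparison of conditions was possible. The peak lists carry no expression values, and the FLK1 label was not checked here.

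RYBP is a subunit of non-canonical Polycomb repressive complex 1 (ncPRC1), in which the RING1 ligases place ubiquitin on histone H2A. Some ncPRC1 complexes are recruited to CpG islands, stretches of DNA in which the CpG dinucleotide has not been depleted, and most CpG islands lie at the start sites of genes. CpG islands inside genes can mark further start sites or regulatory elements.

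The sequences that separate the ends of the set are shown first. Each is the 120-bp stretch of a region that holds the most CpG, from the plus strand of mm9, in lower case with every CpG in capitals. The first lines are from 5 of the 6 regions with the largest fold enrichment, taken as the smaller of the 2 replicate values. The sequence of the third, in 9630014M24Rik, is not printed, for a reason unrelated to its values, and it had the lowest CpG density and GC content of the 6, at 3.40 per 100 bp and 51.7%.
Gm20388 (chr8:122752544-122752663): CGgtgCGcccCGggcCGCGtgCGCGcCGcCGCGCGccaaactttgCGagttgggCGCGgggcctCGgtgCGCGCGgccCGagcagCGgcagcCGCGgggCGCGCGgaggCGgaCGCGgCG
Agap3 (chr5:23980224-23980343): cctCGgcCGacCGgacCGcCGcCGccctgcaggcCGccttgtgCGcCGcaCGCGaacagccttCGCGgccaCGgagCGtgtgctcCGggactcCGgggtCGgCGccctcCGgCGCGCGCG
Agap1 (chr1:91476694-91476813): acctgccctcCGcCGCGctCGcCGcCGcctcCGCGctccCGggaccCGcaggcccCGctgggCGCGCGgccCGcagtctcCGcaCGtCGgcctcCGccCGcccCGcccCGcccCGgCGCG
Gata4 (chr14:63874703-63874822): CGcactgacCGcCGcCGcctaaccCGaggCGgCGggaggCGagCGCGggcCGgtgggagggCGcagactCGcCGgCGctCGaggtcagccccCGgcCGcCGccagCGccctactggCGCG
Cacna1c (chr6:119058440-119058559): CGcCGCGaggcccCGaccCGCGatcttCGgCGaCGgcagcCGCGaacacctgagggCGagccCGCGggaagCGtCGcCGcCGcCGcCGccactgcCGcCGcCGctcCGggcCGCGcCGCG
The next lines are from the regions of highest CpG density.
Filip1l (chr16:57391591-57391710): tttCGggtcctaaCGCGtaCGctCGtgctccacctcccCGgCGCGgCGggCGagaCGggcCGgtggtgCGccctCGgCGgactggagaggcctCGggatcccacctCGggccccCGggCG
Dnahc7b (chr1:46145801-46145920): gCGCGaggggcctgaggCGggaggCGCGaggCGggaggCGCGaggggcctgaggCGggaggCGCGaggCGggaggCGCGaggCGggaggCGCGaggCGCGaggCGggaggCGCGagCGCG
The last lines are from the regions of lowest CpG density.
Mid1 (chrX:166432873-166432992): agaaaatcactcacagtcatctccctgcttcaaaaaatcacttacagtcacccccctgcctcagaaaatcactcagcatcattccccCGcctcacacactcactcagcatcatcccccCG
Smo (chr6:29698357-29698476): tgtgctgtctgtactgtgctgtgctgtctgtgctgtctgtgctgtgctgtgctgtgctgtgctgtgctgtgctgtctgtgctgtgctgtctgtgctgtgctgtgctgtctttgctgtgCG
E030010N08Rik (chr1:95120993-95121112): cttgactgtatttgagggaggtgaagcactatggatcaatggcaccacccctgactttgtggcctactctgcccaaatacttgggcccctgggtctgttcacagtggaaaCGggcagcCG
The windows of the first 5 lines held between 22 and 29 CpG in these 120 bases, and the richest window of the 9630014M24Rik region held 18. The windows of Filip1l and Dnahc7b held 19 and 24, and those of Mid1, Smo and E030010N08Rik held 2, 1 and 2. Words of the Dnahc7b, Mid1 and Smo windows recurred along the line. The share of 12-base words that occurred more than once within the whole region was 82.9% at Smo, 64.5% at this Mid1 region and 38.3% at Dnahc7b. The median over the 219 regions was 0.210%.

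RYBP enrichment was modest at most intronic regions. Fold enrichment is a linear ratio of the ChIP pile-up over the local background, computed by the peak caller, and the highest value of the overlapping peaks was taken in each replicate. Replicate 1 values ran from 1.94 to 5.66 around a median of 3.10, and replicate 2 values from 1.89 to 6.90 around one of 3.41. Other regions of both replicates had medians not far above these. In replicates 1 and 2 they were 3.52 and 4.03 at promoter regions and 3.38 and 3.78 at distal regions over exons. At intergenic distal regions they were 3.31 and 3.68. The median was higher in replicate 2 in each of these classes. Replicate 2 gave the higher value at 169 of the 219 regions. The rank correlation between the replicates was 0.515 over the 219 regions, which share the same libraries and were all selected on these calls. The median region was 1379 bp wide, with a range of 232 to 3832 bp. The median −log10 q of the calls was 1.90 for replicate 1 and 2.24 for replicate 2.

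**Figure D1:**
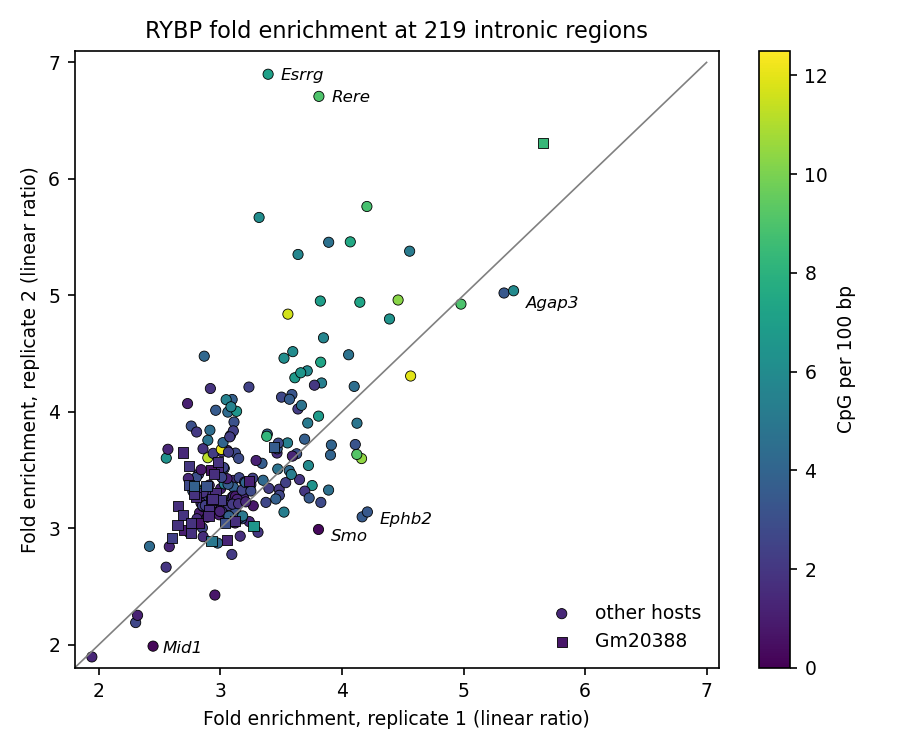
Fold enrichment (linear ratio to the local background) of each of the 219 regions in replicate 1 (x axis) and replicate 2 (y axis), coloured by CpG per 100 bp, with squares for the 33 regions of the Gm20388 gene model and a line of equal values. Of the 219 points, 169 lie above the line, and the regions of higher CpG density sit toward the upper right.

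The region of largest enrichment lay inside the Gm20388 gene model at chr8:122751538-122754922, 50169 bp from the nearest coding start site, that of Fam92b. Its fold enrichment was 5.66 in replicate 1 and 6.31 in replicate 2, and its CpG density was 8.36 per 100 bp. Next came intron 1 of Agap3 (chr5:23979141-23981815), at 5.41 and 5.04. Agap3 and Agap1 encode GTPase-activating proteins of the small GTPase ARF. The Agap1 region (chr1:91476613-91479476), also in intron 1, had values of 4.98 and 4.92 and lay 125227 bp from the nearest coding start site. The third of the set by this measure lay in intron 2 of 9630014M24Rik, a gene nested in Arhgap26, at 5.33 and 5.02. All 4 hosts also had a region of both replicates at a start site of their own.

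Gata4 encodes a transcription factor of heart and endoderm. It held a region in intron 1, the sole intron of the annotated transcript used for numbering (chr14:63873907-63875928), 9799 bp from a start site. Fold enrichment there was 4.56 in replicate 1 and 5.38 in replicate 2. Cacna1c, the pore-forming subunit of the cardiac L-type calcium channel, held one in intron 1 at 4.46 and 4.96, with 10.3 CpG per 100 bp. Ldb3, a protein of the muscle Z-disc, held one in intron 9 at 4.15 and 4.94. The Macrod1 region in intron 3 had values of 4.39 and 4.80. Macrod1 encodes an enzyme that removes ADP-ribose from proteins. The 10 most enriched regions were completed by Dnahc7b, an axonemal dynein heavy chain, at 4.56 and 4.31, and by Rapgef5, an exchange factor for the GTPase Rap, at 4.20 and 5.76. Of these hosts, Cacna1c, Ldb3, Dnahc7b and Rapgef5 had no region of both replicates at their own start site.

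In all, 13 regions reached a fold enrichment of 4 or more in both replicates. All 13 were CpG-island-like, with between 3.40 and 12 CpG per 100 bp, beside 141 island-like regions among all 219. First introns held 7 of the 13, beside 110 of the 219. The host had a region of both replicates at its own start site for 9 of the 13, beside 193 of the 219.

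The replicates differed most at Esrrg, an orphan nuclear receptor gene, with 3.39 in replicate 1 and 6.90 in replicate 2, a ratio of 2.03. Rere, a corepressor of the atrophin family, had 3.81 and 6.71, and Tmem180 had 3.32 and 5.67. In the other direction, one Cdh22 region (chr2:165027562-165027958) had 4.17 in replicate 1 and 3.10 in replicate 2, a ratio of 0.743. Ephb2, a receptor for ephrins, had 4.21 and 3.14. Smo, the transducer of the Hedgehog signal, had 3.81 and 2.99. The median ratio of replicate 2 to replicate 1 was 1.1. With 1 value in each replicate these differences have no test.

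The calls of largest −log10 q did not all have a large fold enrichment. The Filip1l region (chr16:57391560-57391814) reached a −log10 q of 15.3 in replicate 1 and 18.9 in replicate 2 at a fold enrichment of 3.01 and 3.68, over 255 bp. The Gphn region (chr12:79451882-79452113), in the gene of the synaptic scaffold gephyrin, reached 9.46 and 13 at a fold enrichment of 2.42 and 2.84, over 232 bp. The Gm20388 region named above reached 14.2 and 14.6. In the model of the caller, a low fold enrichment is significant where many reads were counted in both the ChIP and its local background. Whether this held at the Filip1l and Gphn regions was not tested.

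The intronic regions were richer in G and C than the intron sequence they could have lain in. The median GC content was 56.4%, against 42.2% over the 806 Mb of eligible intron sequence, which obeys the same limits of distance and exons. The rest of the host intron, taken whole with any other genes and start sites inside it, had a median of 50.5%. GC content was above that of the rest of the intron at 205 of the 219 regions. The median CpG density was 2.66 per 100 bp, with quartiles of 1.69 and 4.36. Eligible intron sequence held 0.823 per 100 bp, and 211 of the 219 regions exceeded that. The rest of the host introns had a median of 1.40, and 173 of the 219 regions exceeded their own. Without Gm20388 the count was 155 of 186, and the median CpG density was 2.87.

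**Figure D2:**
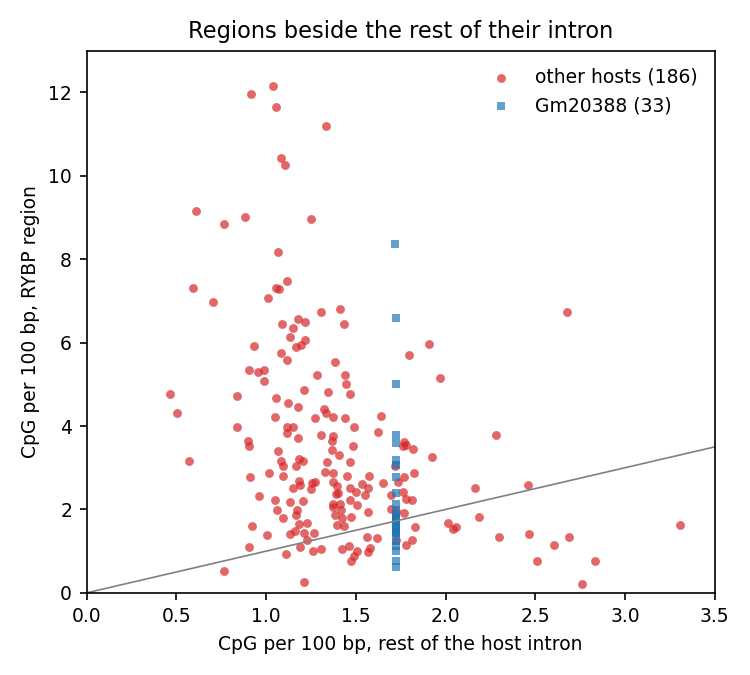
CpG per 100 bp of each region (y axis) against the rest of its host intron (x axis), with a line of equal values; red circles are the 186 regions of other hosts and blue squares the 33 of Gm20388, which share 1 intron. Of all 219 points, 173 lie above the line. The rest of an intron includes any other genes inside it.

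CpG density varied widely within the set. It was under 1 per 100 bp at 11 regions, between 1 and 2 at 66, between 2 and 4 at 80, between 4 and 8 at 50, and 8 or more at 12. A region was called CpG-island-like where a 200-bp stretch had a GC content of at least 50% and a ratio of observed to expected CpG of at least 0.6. This held for 141 of the 219 regions, or 64.4%. The median CpG density was 3.78 per 100 bp over these 141 regions and 1.57 over the other 78. Median fold enrichment was 3.23 and 3.56 in the island-like regions and 2.99 and 3.25 in the others, in replicates 1 and 2. Across the 219 regions the rank correlation of CpG density with fold enrichment was 0.516 in replicate 1 and 0.556 in replicate 2. The points share their libraries and their base composition, so these are descriptions.

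The highest density was that of the Filip1l region, 12.2 per 100 bp, followed by Dnahc7b at 12. Anks1b, which encodes a postsynaptic ankyrin-repeat protein, held 11.7 per 100 bp in intron 17. The lowest was that of a Mid1 region, 0.218 per 100 bp, followed by 0.250 at Smo and 0.529 at E030010N08Rik. The 12 regions of 8 or more CpG per 100 bp had fold enrichments, as the smaller of both replicates, of between 2.90 and 5.66. Of these 12 regions, 5 lay in an intron after the first.

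Intronic regions called in a single replicate had lower GC content and CpG density than the members, as medians. Regions of replicate 1 alone had a median GC content of 51.7% and 1.26 CpG per 100 bp, and those of replicate 2 alone 54.0% and 1.53. Island-like stretches were found in 6.54% and 11.9% of them. Members were wider, in part by construction, since each joins peaks of both replicates. Their median width was 1379 bp against 458 and 499 bp, and a wider region offers more stretches to the island criterion. In the 300 bp around each midpoint, a width equal for all, the median CpG density was 3 for the members and 1.33 for both sets called once. Island-like stretches were then found in 37.9% of the members, 3.38% of the replicate 1 set and 7.67% of the replicate 2 set. The part that peak width and peak strength played in this difference was not tested. The order was not particular to introns. Over whole regions, median CpG density was 4.63 for exonic distal regions of both replicates, and 2.00 and 2.33 for those of replicate 1 and 2 alone. It was 3.86 against 1.29 and 1.69 for intergenic distal regions, and 6.69 against 2.31 and 6.08 for promoter regions.

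Among the 4 classes of regions of both replicates set side by side, the intronic one had the lowest median CpG density. The 404 distal regions that overlapped an exon had a median of 4.63 CpG per 100 bp, the 900 intergenic distal regions 3.86, and the 7495 promoter regions 6.69. The island-like shares were 90.1%, 83.4% and 98.0%. GC content did not follow the same order, with medians of 59.0%, 56.2% and 61.9% against 56.4% for the intronic regions. The quartiles of the intronic and intergenic regions overlapped for both measures. Of all promoter regions under 4000 bp, 59.1% were called in both replicates, against 25.7% of the exonic and 19.6% of the intergenic distal regions.

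**Figure D3:**
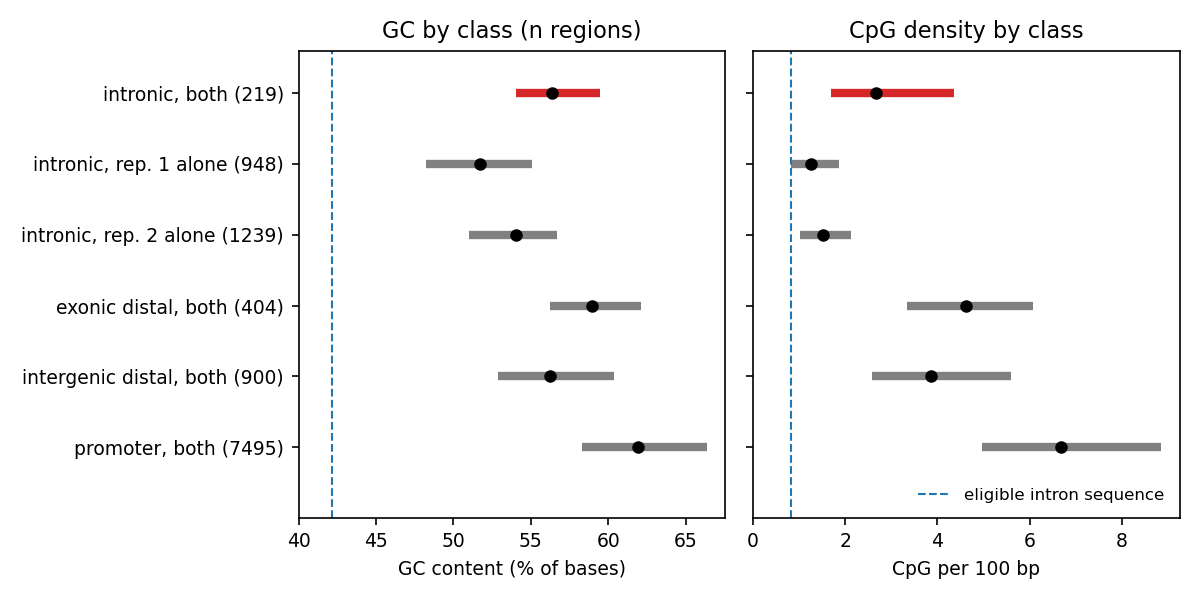
GC content in percent (left) and CpG per 100 bp (right) of 6 classes of RYBP regions, with the number of regions in brackets; dots are medians, bars run from the lower to the upper quartile, and the dashed line marks eligible intron sequence. The 219 intronic regions of both replicates, in red, have a median of 2.66 CpG per 100 bp, between 1.53 for intronic regions of replicate 2 alone and 3.86 for intergenic distal regions.

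Short motifs were counted in the 300 bp around each midpoint, on both strands. GCGGGA, a core of E2F sites, was found in 20.1% of the members. It was found in 6.96% and 6.46% of the intronic regions of replicate 1 and replicate 2 alone, in 25.4% of all merged regions and in 41.7% of the promoter regions of both replicates. Over the 32851 RefSeq promoters of GRCm38, also 300 bases long, the share was 20%. This motif holds a CpG. The E-box CACGTG was found in 6.85% of the members and 6.55% of all merged regions. GATAA, the core of GATA sites, was found in 22.4% of the members and 16.7% of all merged regions, and in 26.8% and 25.5% of the sets called once. It was found in 9.75% of the promoter regions of both replicates and in 25.4% of the RefSeq promoters. AGGAA, the core of ETS sites, was found in 60.3% of the members and 60.4% of all merged regions, and in 69.5% and 72.2% of the sets called once. Its share was 50.3% in the promoter regions of both replicates and 66.7% in the RefSeq promoters. None of the 4 motifs contains another, and base composition was not matched.

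The 219 regions lay in 151 host genes. A region inside several genes was given to the shortest of them that held it in 1 intron. Of the hosts, 125 held 1 region, and the other 26 held 94 regions. The median host was 86.9 kb long, against 15.4 kb over all 22350 protein-coding genes. A gene needs introns that reach beyond 2500 bp from its start sites to be a host, so that short genes could rarely enter.

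A single gene model, Gm20388 (ENSMUSG00000092329.1, chr8:122434741-126869622), held 33 regions, or 15.1% of the set. It is annotated as protein-coding with 1 transcript over 4.43 Mb. Its first intron spans 4.38 Mb and holds 72 other complete protein-coding genes, and none of the 33 regions lay inside another protein-coding gene. Its 2.25 Mb of eligible sequence was 0.278% of all eligible intron bases. The density was 14.7 regions per Mb there and 0.231 per Mb elsewhere. Of the 33 regions, 17 had the start of Fam92b or Gse1 as the nearest and lay within 296 kb of each other, and 17 lay over 100 kb from any coding start site. Their CpG density had a median of 1.77 per 100 bp, beside 1.72 for the rest of the intron. That rest includes the exons and start sites of the 72 other genes. Eligible intron sequence over all genes, without exons and start sites, held 0.823 per 100 bp. Their median fold enrichment was 2.91 for replicate 1 and 3.24 for replicate 2. Intronic regions called once were also placed there often, with 65 of 948 for replicate 1 and 136 of 1239 for replicate 2, or 6.86% and 11.0%. Results on position along the gene are therefore given with and without this gene model.

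**Figure D4:**
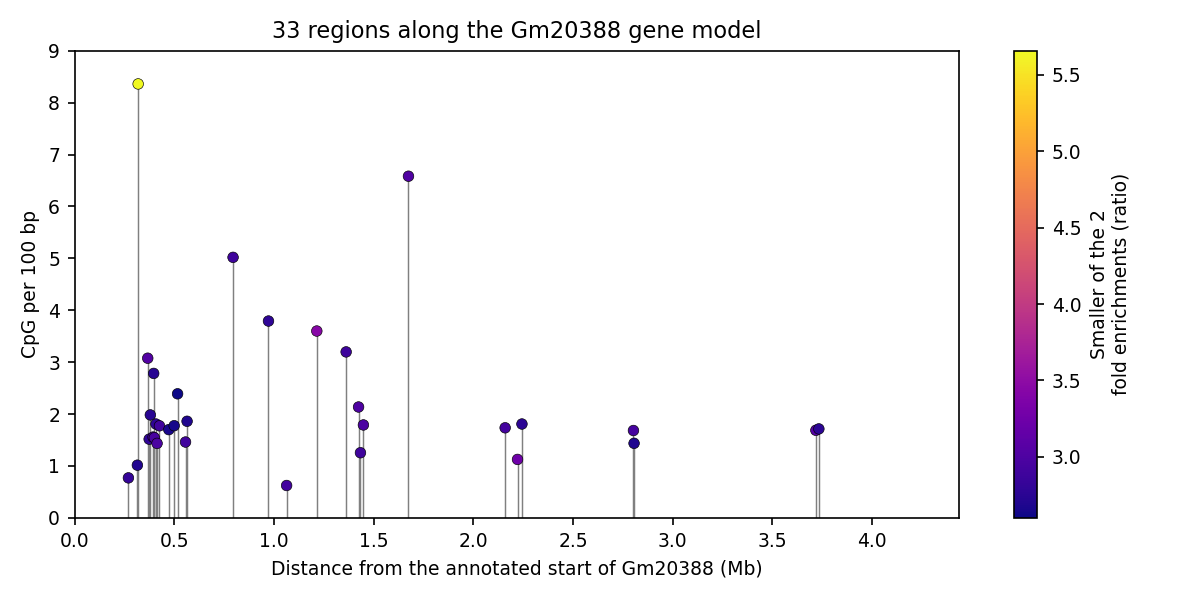
CpG per 100 bp (y axis) of the 33 regions along the Gm20388 gene model, by distance in Mb from its annotated start (x axis), coloured by the smaller of the 2 fold enrichments. A group of 17 regions sits within 296 kb, and 1 of them has both the highest CpG density, 8.36, and the highest enrichment, 5.66.

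Next to Gm20388, 4 hosts held 4 regions each. Mid1, which encodes a microtubule-bound ubiquitin ligase and spans the boundary of the pseudoautosomal region in the mouse, held 4 within 10.9 kb of its last intron. Their fold enrichments were among the lowest of the set. They ranged from 1.94 to 2.95 in replicate 1 and from 1.89 to 2.43 in replicate 2. Their CpG density ranged from 0.218 to 1.34 per 100 bp, and between 16.8% and 64.5% of their 12-base words recurred within the region. In all, 4 regions had a fold enrichment under 2.5 in both replicates, of which 3 were in Mid1 and 1 was in Cdk5rap2, a centrosomal protein gene.

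Tns1, a tensin of focal adhesions, held 4 regions over 64.0 kb, with values of 2.76 to 3.35 in replicate 1 and 3.34 to 3.88 in replicate 2. Macrod1 held 4 over 45.6 kb, of which the region named above was the most enriched and the richest in CpG at 6.44 per 100 bp. The others held 1.34 to 2.60. Nfix, a transcription factor of the nuclear factor I family, held 4 over 54.7 kb, with 1.12 to 1.98 CpG per 100 bp. Their values were 2.73 to 3.31 in replicate 1 and 2.96 to 4.07 in replicate 2. A further Nfix region of 4089 bp fell just outside the width limit.

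Ptprn2, a phosphatase-like protein of secretory vesicles, held 3 regions within 10.1 kb of intron 12. These were the farthest from any coding start site, at 355606 to 363789 bp. The central one (chr12:118391383-118394785) had values of 4.05 and 4.49, and the other 2 had 2.99 and 3.06 in replicate 1 and 3.49 and 3.38 in replicate 2. Pax7, a paired-box factor of muscle precursors, held 3 within 8.16 kb of intron 4, all at between 3.29 and 3.65 in replicate 1 and between 3.42 and 3.62 in replicate 2. Of the 26 hosts with several regions, 16 had all of them in 1 intron.

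Near the width limit, the widest members were those of Ostm1 at 3832 bp and Eif4e3 at 3734 bp, followed by an Nfix region of 3685 bp. Just outside were the Nfix region of 4089 bp and a Gm20388 region of 4234 bp. In all, 12 of the 644 regions of 4000 bp or more met every other limit. Near the distance limit, a Gm20388 region lay 2525 bp and a Zcchc2 region 2864 bp from the nearest coding start site, and regions of Npas3 and Aatk fell outside at 2435 and 2285 bp.

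RYBP was also present at the start sites of most hosts. A region of both replicates lay within 2500 bp of a start site of the host itself in 129 of the 151 hosts, or 85.4%. Of all 22350 protein-coding genes, 37.1% had one. Of the 2801 genes at least as long as the median host, 60.4% had one, against 88.2% of the 76 hosts of that length. Hosts of intronic regions called once had one in 74.3% (replicate 1) and 78.3% (replicate 2) of cases. A bound start was thus common to hosts of all intronic calls, and the GC content of these genes was not matched. Among the regions outside Gm20388, the 160 in hosts with a bound start and the 26 in hosts without had median CpG densities of 2.88 and 2.73 per 100 bp. Their median fold enrichments were 3.14 and 3.11 in replicate 1, and 3.46 and 3.32 in replicate 2.

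First introns held 110 of the 219 regions, or 50.2%, and 77 of the 186 outside Gm20388, or 41.4%. Of the eligible intron bases, 25.3% lay in first introns. Introns 4 and later held 19.2% of the regions, 22.6% without Gm20388, and 47.9% of the eligible bases. The share in first introns was 42.7% and 46.8% among intronic regions called in replicate 1 and replicate 2 alone, and the difference was not tested. Outside Gm20388, the 77 regions in first introns had a median CpG density of 3.71 per 100 bp and the 109 in later introns 2.67. Median fold enrichments were 3.15 and 3.13 in replicate 1, and 3.60 and 3.41 in replicate 2.

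Along the gene, with 0 at the start site and 1 at the end, the median position was 0.354, and 0.408 without Gm20388. The first 50% of the host length held 63.9% of the regions, 60.8% without Gm20388, and 50.2% of the eligible bases. The last 10% of the host length held 3.20% of the regions, 3.76% without Gm20388, and 8.14% of the eligible bases. The nearest coding start site lay at a median of 15334 bp, or 12729.5 bp without Gm20388. It was within 5000 bp for 37 regions, 35 without Gm20388. It was over 50000 bp away for 45 regions, 23 without Gm20388, and over 100000 bp away for 31, or 14 without it. A further RYBP region of both replicates lay within 10000 bp of 119 regions, 95 without Gm20388. The nearest one was another intronic member for 46 of the 119, a promoter region for 37 and a region of 4000 bp or more for 25. Without Gm20388 these counts were 29, 34 and 22 of the 95.

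**Figure D5:**
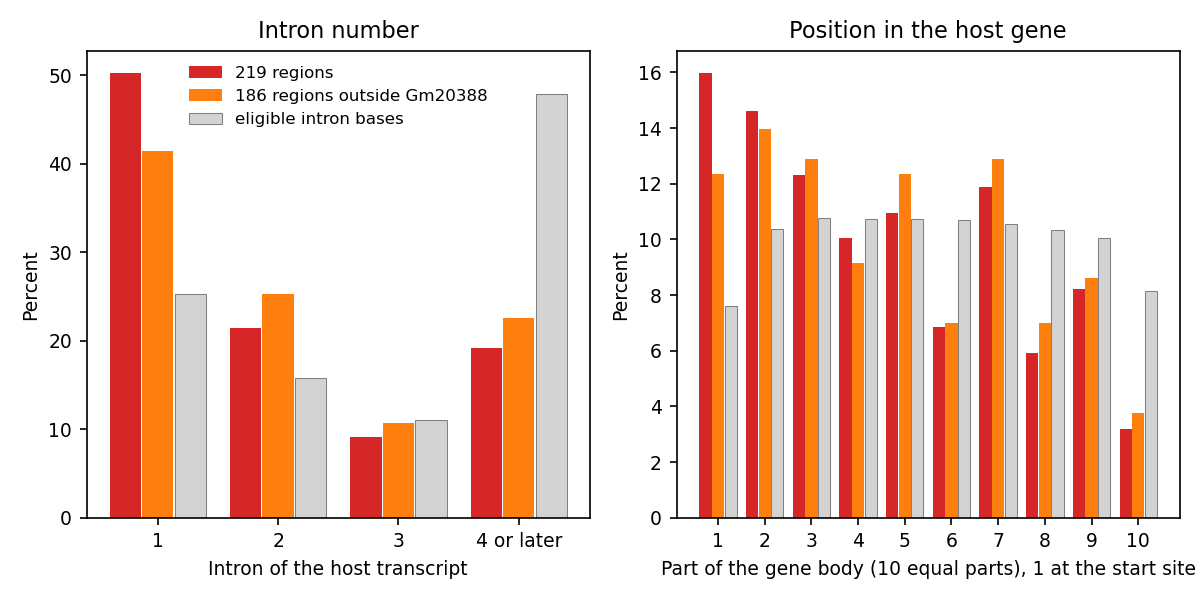
Percent of the regions by intron number (left) and by position along the host gene, in 10 equal parts from its start (right), for all 219 regions (red), the 186 outside Gm20388 (orange) and eligible intron bases (grey). First introns hold 50.2% of the regions, 41.4% without Gm20388, and 25.3% of eligible bases.

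The density of regions per Mb of eligible sequence differed between chromosomes. It was 1.06 on chromosome 8, and 0.247 with the Gm20388 regions left out but its eligible sequence kept. Chromosome 11 followed with 26 regions and 0.637 per Mb, and chromosome 4 with 25 regions and 0.529 per Mb. The lowest density was 0.0495 per Mb on chromosome 3, which held 2 regions. Chromosome X held 6, of which 4 were in Mid1.

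A group of DNA-binding transcription factors, picked by hand and not a complete list, took in 29 of the 151 hosts and 38 regions. This group was put together after the values were seen, and the share of such genes among all protein-coding genes was not computed, so the counts describe these hosts alone. Fold enrichment at the 38 regions ran from 2.55 to 4.56 in replicate 1 and from 2.96 to 6.90 in replicate 2. Of these regions 28 were CpG-island-like, beside 141 of all 219 regions. Of the 29 hosts, 26 had a bound start, beside 129 of all 151 hosts, so a bound start was not particular to this group. The group included 3 members of the nuclear factor I family, Nfib, Nfic and Nfix. The most enriched of their regions was in Nfib (chr4:82158559-82159628), at 4.07 and 5.46 and with 7.48 CpG per 100 bp. Both LIM homeodomain genes Lmx1a and Lmx1b held a region, at 3.72 and 3.54 and at 3.47 and 3.68. The T-cell factor gene Bcl11b had 3.85 and 4.63, and the B-cell factor gene Pax5 had 3.06 and 4.0.

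Smaller groups, also assembled after the fact and without a count over all genes, were 8 ion channel subunits, 9 cell-surface receptors, 4 secreted ligands and 5 regulators of small GTPases. The ion channel genes included the potassium channel Kcnq1, at 3.57 and 4.11. The ligands were Wnt3a, Wnt6, Fgf18 and Nrg2, of which a Nrg2 region in intron 1 was the most enriched at 3.89 and 5.45.

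Of 213 genes on 7 lists of regulators of mesoderm, blood, heart, chromatin and signalling, 13 (6.10%) hosted a region. The share was 0.676% over all protein-coding genes, and gene length and GC content were not matched. The lists were written with earlier results of these data known.

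Among 38 Polycomb subunits, Bcor and Jarid2 were hosts. Bcor encodes a subunit of an ncPRC1 complex that holds RYBP, and its region in intron 1 (chrX:11717152-11717968) had values of 3.61 and 4.29 with 6.73 CpG per 100 bp. Jarid2 encodes an accessory subunit of PRC2. Its region (chr13:44964950-44965452) had values of 4.12 and 3.63 and 9.15 CpG per 100 bp. That sequence had 16 near-identical copies elsewhere in mm9, so that short reads from it may map to several places. One Mid1 region had 1 such copy, and the remaining 217 regions had none.

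Of 35 DNA methylation and histone enzymes, Tet1, which oxidizes methylcytosine, held a region in intron 1 at 3.55 and 3.73, with 5.34 CpG per 100 bp. Mecom, a PR-domain zinc finger gene on the same list, held one in intron 2 at 3.83 and 4.25, with 5.34 CpG per 100 bp. The start of Tet1 was not bound in both replicates, whereas that of Mecom was.

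Of 26 blood regulators, the hosts were Zfpm1, the cofactor of GATA1, and Gse1, a component of histone deacetylase complexes. The 2 Zfpm1 regions had 2.55 and 2.58 in replicate 1 and 2.66 and 2.84 in replicate 2. The Gse1 region had 2.57 and 3.68. None of these 3 was CpG-island-like, and all 3 lie in the Gm20388 gene model as well. Of 20 cardiac genes, Gata4 was the host named above. None of 21 endothelial genes was a host.

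Of 18 paraxial mesoderm genes, the homeobox genes Meox1 and Uncx were hosts. Meox1 had 2.86 and 3.18. The 2 Uncx regions lay in the last intron of the annotated transcript, 13020 and 55645 bp from its start, with 3.48 and 3.73 in replicate 1 and 3.73 and 3.26 in replicate 2. Of 55 signalling genes, the hosts were Wnt3a at 3.75 and 3.37, the receptor gene Notch3 at 3.52 and 3.14, Smo, and the Hedgehog effector Gli2 at 4.10 and 4.22. Wnt3a, Notch3 and Smo were each higher in replicate 1, against the direction of most regions.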

How the data were processed

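RYBP ChIP-seq peaks of 2 replicates and the merged region list were analysed. Per the labels' processing notes, the authors used Bowtie 1.1.2b, MACS2 2.0.10 and bedtools with mm9. Peaks were called in each replicate separately. The deposited peak lists hold a score (10 times the −log10 q, rounded down), a fold enrichment (a linear ratio over local background), and −log10 of the p-value and of the q-value. The merged list holds positions only and is the union of both lists. The files carry no read counts. The study states the reads of each library, more for replicate 1 than for replicate 2, and these totals were not used here, so no interval that needs them was computed.

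Regions were classified against the mm9 GENCODE annotation with Python 3.11.15, bedtools 2.31.1 and pysam 0.24.0, and base composition was read from the mm9 genome. The distance is from the nearest edge of the region, and an overlap is at least 1 bp. Introns were numbered along the longest transcript of the host with the region in 1 intron, protein-coding transcripts first. A near-identical copy was a minimap2 2.31 match elsewhere in mm9 over 50% or more of the region at 90% identity or above. Promoter sequences are RefSeq (GRCm38.p6). The code was tested on simulated data.

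The members and lists were chosen with earlier results of these data known. Regions named are the 10 of largest fold enrichment (smaller of both replicates), the 5 hosts with most regions, the 3 highest and 3 lowest by CpG density, the 3 farthest from a coding start site, the 3 widest, the 3 largest and 3 smallest ratios between replicates, the 3 of largest −log10 q, hosts on the lists, and regions next to a limit. Other regions named, such as those of Pax7, Nfib, Lmx1a, Bcl11b and Kcnq1, the Gm20388 comparison, the repeat measure (12-base words) and the host groups were chosen after their values were seen. The members were selected on the peak calls and are not replicates of a condition, so no test was made. Alternatives were stricter calls, other distances, other annotations and single replicates.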

Additional observations from a re-analysis of the deposited data

How the results depend on the processing

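Taking the peaks of 1 replicate at a time gave 1212 to 1515 intronic regions, a median GC content of 53.0% to 54.4%, 1.42 to 1.62 CpG per 100 bp, 44.4% to 47.5% in first introns, 78.7% to 87.6% of hosts with a bound start and a median position of 0.411 in either replicate. A −log10 q of at least 2 in each replicate left 79 regions, with 58.5% GC, 4.73 CpG per 100 bp, 76.1% of hosts bound and a position of 0.291. A fold enrichment of at least 3 left 135 regions, with 3.51 CpG per 100 bp and 46.7% in first introns. Coverage of at least 50% of the region by each replicate left 131, with 3.31 CpG per 100 bp, 45.8% in first introns, 72.7% of hosts bound and a position of 0.430. In the single-replicate and stricter settings, the regions at start sites came from the same changed list. The shares of bound hosts therefore reflect a changed definition of a bound start as well as changed hosts. The share over all genes was not computed under these settings. The position was 0.384 beyond 5000 bp, 0.378 with protein-coding transcripts alone as starts and 0.366 with the exons of protein-coding genes alone barred. Chosen after seeing the data, leaving out Gm20388 gave 2.87 CpG per 100 bp, 41.4% in first introns and a position of 0.408, and the 300 bp around the midpoint gave 3 CpG per 100 bp. Values were held to the SD between the single-replicate lists, which was 0.000216 for the position, and counts to a factor of 1.5. All other alternatives stayed within these limits. No paired analysis was possible because the inputs are not analysed here and no groups were compared. With 2 replicates and peaks in place of reads, weak intronic binding may not have been called.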
